A study of Mus musculus with 24 samples.

Results

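Circular RNAs form when the end of a downstream exon is spliced to the start of an upstream exon, which leaves a closed ring of exons in place of a linear transcript. The circles described here come from Creb3l2 and Crebrf, a pair of mouse genes tied to the CREB3 family of stress factors. They were chosen by position: a circle belonged to a gene when both ends of its back-splice junction matched exon edges of that gene on the same strand. Of the 1717 circular RNAs measured, 4 met this rule, 2 from each gene. The genes were picked with the TAC against sham result of the same libraries already known, so that contrast is given for the 4 circles as a description and without a p-value.

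CREB3L2 is a transcription factor that is made as a membrane protein of the endoplasmic reticulum. Under stress it moves to the Golgi, where proteases release its DNA-binding part, and in mouse cartilage it switches on genes of the COPII coat that carries secreted proteins out of the endoplasmic reticulum. CREBRF, the CREB3 regulatory factor, binds CREB3, a relative of CREB3L2, and promotes its breakdown. Fibroblasts are the main matrix-secreting cells of the heart, and the secretory pathway is the route by which collagen leaves them.

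The mice were male C57BL/6J of 8 weeks of age at surgery. Transverse aortic constriction (TAC), a ligature around the aortic arch that makes the heart pump against raised pressure, was set against a sham operation without ligation. Cardiac fibroblasts were isolated by Langendorff perfusion after 1 week (4 TAC and 4 sham libraries), 4 weeks (4 TAC and 5 sham libraries) and 8 weeks (3 TAC and 4 sham libraries). No genetic change was made in any group, and the sources used here give no sort of the cells by type.

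Depth was low. The libraries held 3595 to 9146 junction reads each, and 1 read was worth 0.642 to 1.57 normalized reads. The TAC libraries were deeper than the sham libraries at 4 weeks, with means of 7980 against 5666 junction reads (two-sided exact permutation test, p = 0.0159, 0.0476 after Benjamini-Hochberg adjustment over the 3 times). At 1 week the means were 5207 against 4681 (p = 0.457, exact permutation test), and at 8 weeks 5698 against 5493 (p = 0.743, exact permutation test).

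Creb3l2 lies on the minus strand of chromosome 6 (37327255 to 37442146 in mm10) and has 12 exons in the matching transcript. The larger circle joined the end of exon 8 to the start of exon 3, at chromosome 6, 37353557 to 37364143. Its 6 exons add up to 724 bases, all coding, and cover codons 107 to 348 of the 521 codons with the stop. The smaller circle used the same end of exon 8 but started at exon 5, at 37353557 to 37358647, and its 4 exons add up to 460 bases over codons 195 to 348. These sums take the exons between the ends from the annotation, since a junction read shows only the ends.

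Crebrf lies on the plus strand of chromosome 17 (26715650 to 26776635) and has 9 exons. One circle joined the end of exon 4 to the start of exon 3, at 26739543 to 26743131, with 1216 coding bases over codons 4 to 409 of 640. The other joined the same end of exon 4 to the start of exon 2, at 26736789 to 26743131. It holds 1411 bases, of which 186 lie before the start codon in the 5′ untranslated region, so that it covers codons 1 to 409 with the start codon. All 4 circles leave a remainder of 1 base when divided into codons, and 64.5% of the 1657 circles with a transcript that holds both ends were no multiple of 3 bases.

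**Figure D1:**
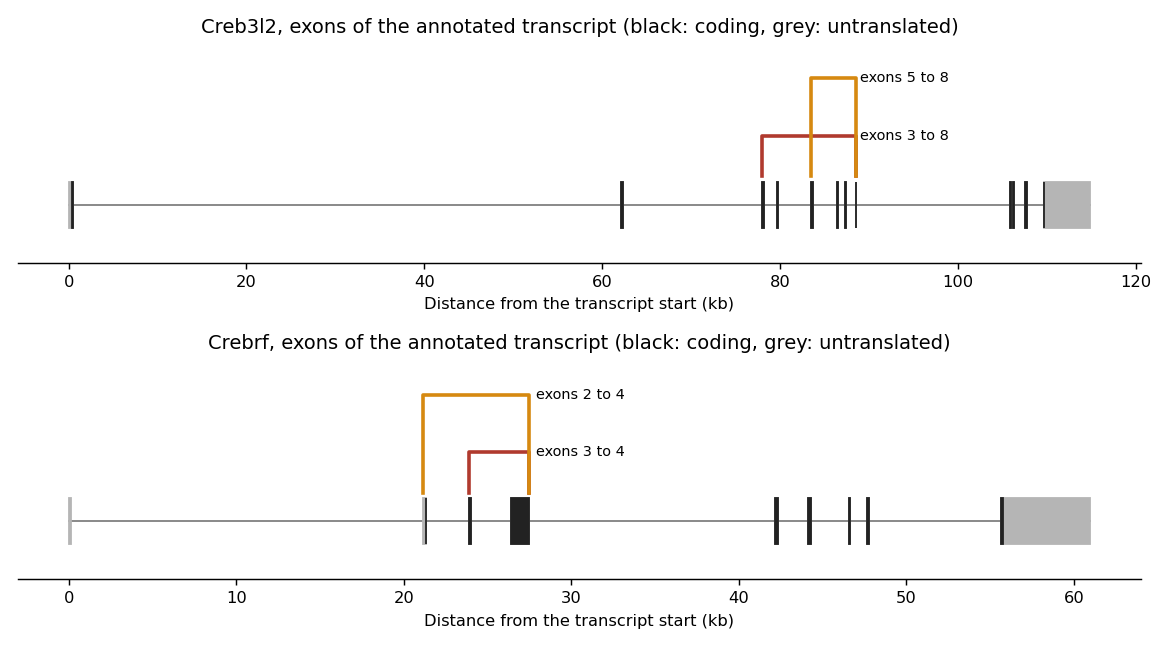
Exons of Creb3l2 and Crebrf along each transcript, in kilobases from its start, to scale, with coding bases in black and untranslated bases in grey. Brackets join the exons at the 2 ends of each circle: the circles of a gene share their last exon (exon 8 of Creb3l2, exon 4 of Crebrf) and differ in the first.

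The junctions are the sequences that tell the circles apart from the linear transcript, and 3 of them lie wholly in coding exons. Each line shows the last 30 bases of the last exon in lower case and the first 30 bases of the first exon in capitals. They were read from the GENCODE transcript sequences, on the gene's strand.
Creb3l2 exons 3 to 8: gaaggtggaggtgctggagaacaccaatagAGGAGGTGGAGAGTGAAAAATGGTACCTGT
Creb3l2 exons 5 to 8: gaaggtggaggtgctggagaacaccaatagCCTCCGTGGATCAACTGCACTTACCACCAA
Crebrf exons 3 to 4: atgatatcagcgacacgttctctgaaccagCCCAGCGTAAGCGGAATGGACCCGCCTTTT
The lower-case part is the same in both Creb3l2 circles, and the capitals separate them. The junction of Crebrf exons 2 to 4 has the same lower-case part as that of exons 3 to 4, but continues into the untranslated region and is not shown.

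Sharing a last exon is one of several arrangements that circles of one gene can take. Over all genes with several circles, 164 of 845 pairs (19.4%) shared the end of the last exon, as both pairs here do, and 223 (26.4%) shared the start of the first. The introns before the first exon were 15668 bp for Creb3l2 exons 3 to 8, 3710 bp for Creb3l2 exons 5 to 8, 2559 bp for Crebrf exons 3 to 4 and 21014 bp for Crebrf exons 2 to 4, around a median of 11026 bp over all circles. The shared introns after the last exon measured 17242 bp in Creb3l2 and 14673 bp in Crebrf, against a median of 9861 bp. In both genes 1 circle thus had a short and 1 a long upstream intron, with no common order: the abundant circle had the longer one in Creb3l2 and the shorter one in Crebrf. GC content was 53.2% and 55.0% in the Creb3l2 circles of exons 3 to 8 and 5 to 8, and 45.7% and 44.3% in the Crebrf circles of exons 3 to 4 and 2 to 4, against a median of 49.3%.

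Each value below counts reads across 1 junction, so levels of different circles are compared per junction. Crebrf exons 3 to 4 was the most abundant of the 4, with a mean of 10.9 normalized reads over the 24 libraries, which is rank 77 of 1717. Creb3l2 exons 3 to 8 followed with 6.27 (rank 192), then Crebrf exons 2 to 4 with 4.08 (rank 332). Creb3l2 exons 5 to 8 was scarce, with 1.23 (rank 1322) and 30 reads in all. A read was present in 23 libraries for Creb3l2 exons 3 to 8 (152 reads) and for Crebrf exons 3 to 4 (270 reads), in 22 for Crebrf exons 2 to 4 (103 reads) and in 17 for Creb3l2 exons 5 to 8.

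Creb3l2 exons 3 to 8 was the circle with more reads in TAC than in sham libraries at all 3 times. At 1 week it measured 10.8, 11.5, 20.0 and 8.76 normalized reads in TAC libraries, against 6.28, 1.25, 3.01 and 2.07 in sham libraries. The groups did not overlap at this time, and the lowest TAC library stood above the highest sham library. Of all circles, 2.21% had TAC libraries wholly above sham libraries at 1 week. The means were 12.7 ± 4.95 in TAC and 3.15 ± 2.21 in sham (SD, n = 4 each), a ratio of 4.05.

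At 4 weeks the values of Creb3l2 exons 3 to 8 were 10.1, 3.67, 12.3 and 3.21 in TAC libraries, against 3.74, 3.14, 0, 6.11 and 3.69 in sham libraries. Here 2 TAC libraries were high and 2 lay within the sham range. The sham library without a read, replicate 3, allows up to 2.60 normalized reads, the worth of 3 reads. At 8 weeks the values were 13.2, 6.13 and 6.86 in TAC libraries, against 3.19, 3.30, 1.92 and 6.36 in sham libraries, and 1 sham library reached into the TAC range. Groups without overlap and with TAC higher were found for 2.33% of all circles at 4 weeks and 3.09% at 8 weeks, and none of the 4 circles was among them. The means were 7.34 ± 4.60 in TAC (n = 4) and 3.33 ± 2.19 in sham (n = 5) at 4 weeks, and 8.72 ± 3.87 in TAC (n = 3) and 3.70 ± 1.89 in sham (n = 4) at 8 weeks. The 3 sham means thus lay between 3.15 and 3.70, while the TAC means spread from 7.34 to 12.7.

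Over the 3 times, 10 of 11 TAC libraries stood above the sham mean of their time. The circle averaged 9.68 ± 4.79 normalized reads over the 11 TAC libraries and 3.39 ± 1.94 over the 13 sham libraries (SD). A TAC mean above the sham mean at all 3 times was found for 14.4% of all circles. On the log2(normalized reads + 0.5) scale, where the fit averages logs so that a difference need not equal the log2 ratio of the means, the TAC minus sham difference was 1.45 ± 0.35 (SE) averaged over the times. By time it was 1.98 ± 0.59 at 1 week, 1.21 ± 0.56 at 4 weeks and 1.16 ± 0.64 at 8 weeks. Here and below, SEs and intervals on the log2 scale come from limma, which here takes each circle's spread almost wholly from circles of similar level. The SEs are thus smaller than the libraries of a circle alone would give where its own residual SD is large for its level. This holds most for Crebrf exons 3 to 4, with an SD of 1.14 against a median of 0.64 at its level. Creb3l2 exons 3 to 8 had 0.93 against 0.78 and Crebrf exons 2 to 4 had 1.12 against 0.97. For Creb3l2 exons 5 to 8 the order was reversed, at 1.00 against 1.10.

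Creb3l2 exons 5 to 8 rested on few reads. At 1 week it measured 3.08, 3.83, 0.998 and 0.973 normalized reads in TAC libraries, against 0, 0, 1.50 and 0 in sham libraries, which is 8 reads in all against 1. The 4 TAC libraries all held a read and 1 of the 4 sham libraries did, and the ranges overlapped. At 4 weeks it measured 0, 2.20, 1.45 and 1.93 in TAC libraries, against 0.934, 1.57, 0, 2.04 and 2.76 in sham libraries. At 8 weeks the values were 1.20, 1.02 and 0.857 in TAC libraries, 1 read each, against 1.06, 2.20, 0 and 0 in sham libraries. The mean at 1 week was 2.22 ± 1.46 in TAC and 0.376 ± 0.751 in sham libraries (SD). At 4 weeks TAC libraries averaged 1.39 ± 0.980 and sham libraries 1.46 ± 1.06, and at 8 weeks TAC libraries 1.03 ± 0.170 and sham libraries 0.816 ± 1.05. The TAC minus sham log2 difference was 1.77 ± 0.81 (SE) at 1 week, -0.05 ± 0.77 at 4 weeks and 0.58 ± 0.87 at 8 weeks, and 0.77 ± 0.47 on average.

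**Figure D2:**
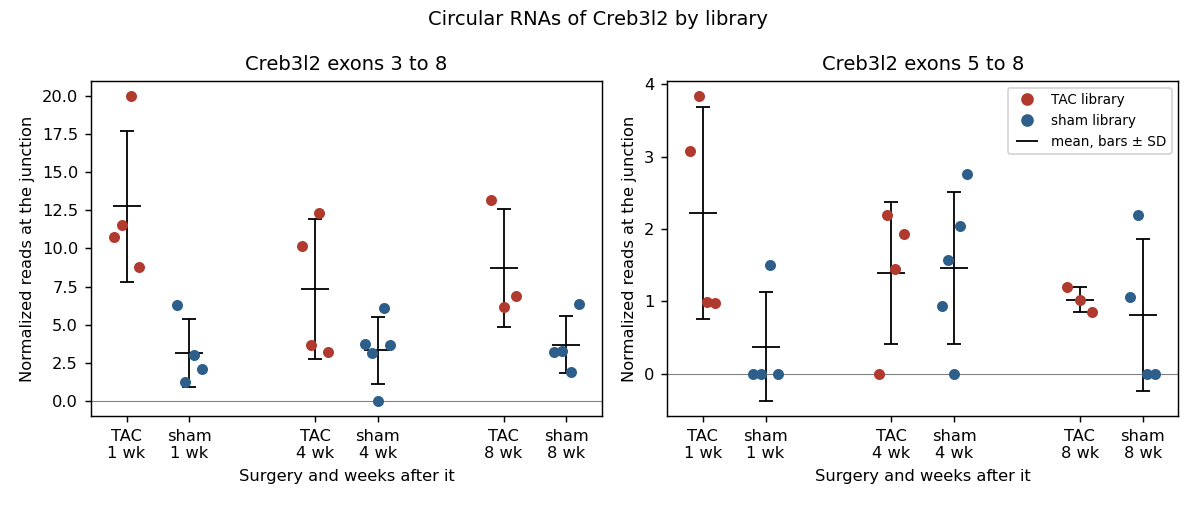
Normalized junction reads of the 2 Creb3l2 circles in each library, TAC left of sham at 1, 4 and 8 weeks, with the mean as a line and bars of 1 SD on each side. For exons 3 to 8 the 4 TAC libraries at 1 week sit between 8.76 and 20.0, above all sham libraries of that time, and exons 5 to 8 stays at or under 3.83 in every library.

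Crebrf exons 3 to 4 did not keep one direction. At 1 week it measured 4.61, 10.5, 19.0 and 17.5 normalized reads in TAC libraries, against 1.26, 0, 18.0 and 12.4 in sham libraries. The sham libraries of that week split into 2 low and 2 high ones, and the low ones, replicates 1 and 2, held 1 and 0 reads. The library at 0 allows up to 3.74 normalized reads. The means were 12.9 ± 6.64 in TAC and 7.92 ± 8.75 in sham (SD, n = 4 each).

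At 4 weeks Crebrf exons 3 to 4 measured 12.7, 8.80, 10.2 and 15.4 in TAC libraries, against 4.67, 7.86, 15.6, 8.14 and 6.45 in sham libraries. At 8 weeks it measured 10.8, 7.15 and 12.9 in TAC libraries, against 21.3, 12.1, 14.4 and 9.55 in sham libraries. At 4 weeks every TAC library stood above the sham mean and at 8 weeks every TAC library stood below it, with overlapping ranges at both times. The means were 11.8 ± 2.92 in TAC and 8.55 ± 4.19 in sham at 4 weeks, and 10.3 ± 2.89 in TAC and 14.3 ± 5.04 in sham at 8 weeks. The background of groups without overlap and with TAC lower was 3.03% of all circles at 1 week, 1.22% at 4 weeks and 3.03% at 8 weeks, again with none of the 4 circles. The TAC minus sham log2 difference was 1.64 ± 0.50 (SE) at 1 week, 0.52 ± 0.47 at 4 weeks and -0.44 ± 0.54 at 8 weeks, and 0.57 ± 0.29 on average. The value at 1 week hung on single sham libraries: it was 0.66 without replicate 2 and 2.40 without replicate 3.

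Crebrf exons 2 to 4, the circle with the start codon, measured 1.54, 0, 2.99 and 4.86 normalized reads in TAC libraries at 1 week, against 1.26, 2.49, 3.01 and 7.24 in sham libraries. At 4 weeks the values were 5.92, 0.734, 3.63 and 8.35 in TAC libraries, against 1.87, 0, 4.34, 1.02 and 4.61 in sham libraries. At 8 weeks they were 3.59, 3.06 and 5.14 in TAC libraries, against 10.6, 8.80, 8.66 and 4.24 in sham libraries. In all, 3 of the sham libraries at 8 weeks were thus the highest of all libraries for this circle, and the other lay within the TAC range. The TAC means were 2.35 ± 2.08, 4.66 ± 3.25 and 3.93 ± 1.08 at 1, 4 and 8 weeks (SD, n = 4, 4 and 3). The sham means were 3.50 ± 2.60, 2.37 ± 2.04 and 8.09 ± 2.72 at those times (n = 4, 5 and 4). The TAC minus sham log2 difference was -0.73 ± 0.67 (SE) at 1 week, 0.95 ± 0.64 at 4 weeks and -0.91 ± 0.73 at 8 weeks, and -0.23 ± 0.39 on average.

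**Figure D3:**
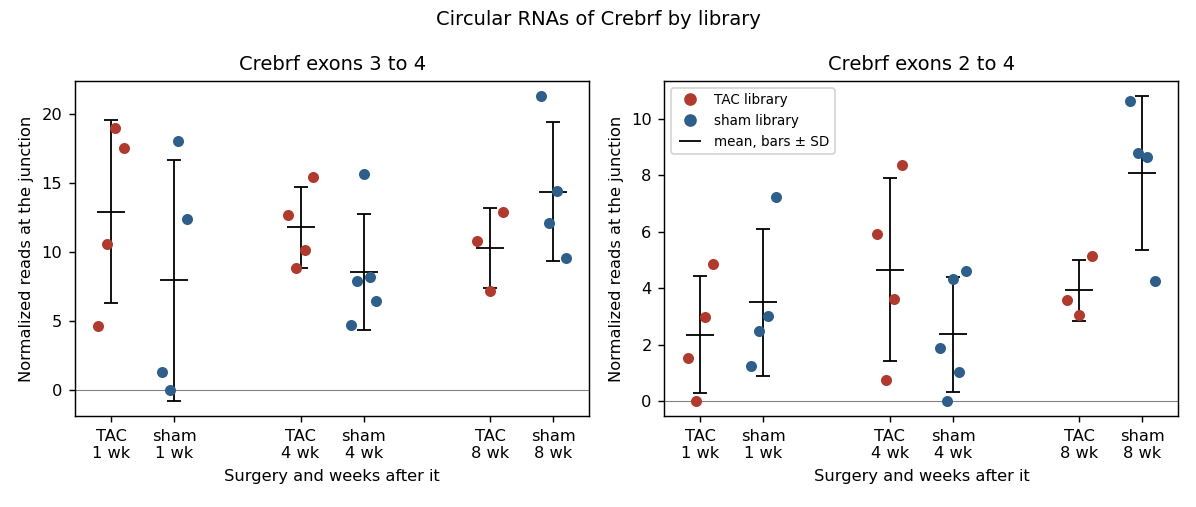
Normalized junction reads of the 2 Crebrf circles in each library, TAC left of sham at 1, 4 and 8 weeks, with the mean as a line and bars of 1 SD on each side. For exons 3 to 4 the sham libraries at 1 week spread from 0 to 18.0, and at 8 weeks the sham mean lies above the TAC mean for both circles.

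Ordered by mean, the 6 groups of Creb3l2 exons 3 to 8 ran from TAC at 1 week over TAC at 8 and 4 weeks to sham at 8, 4 and 1 weeks. For Creb3l2 exons 5 to 8 TAC at 1 week stood highest and sham at 1 week lowest. For Crebrf exons 3 to 4 sham at 8 weeks stood highest and sham at 1 week lowest, and for Crebrf exons 2 to 4 sham at 8 weeks stood highest and TAC at 1 week lowest. For all 4 circles, each group overlapped in range with its neighbour in that order.

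Because the genes were chosen from the TAC against sham contrast, the calls of limma with Benjamini-Hochberg adjustment are given here as a description, and nothing is read from their number. In the average over times 1 of the 4 circles was called, Creb3l2 exons 3 to 8, where 0.641% of all circles were called, 6 higher and 5 lower. That call was lost without TAC replicate 1 of 8 weeks, at 1.34, and with a pseudocount of 0.1, at 1.70. At 1, 4 and 8 weeks taken alone none of the 4 was called, against 1.46%, 0.116% and 0% of all circles. At 8 weeks 104 circles had an unadjusted p under 0.05 and a voom fit called 0. The absence of calls at 1 week depended on the setting, which is again a description of circles picked on this contrast. Creb3l2 exons 3 to 8 was called at 1 week under 4 of 9 other settings. These were a pseudocount of 1, only circles of a mean of at least 5 reads, trimmed-mean scaling and scaling to total junction reads. Over all circles the main fit called 25 at 1 week and the pseudocount of 1 called 23. The stricter filter called 24 of only 272 circles, a far larger share, and either scaling called at most 26. Of 24 fits with 1 library left out, 2 called it there, without sham replicate 1 of 1 week and without sham replicate 3 of 4 weeks. Crebrf exons 3 to 4 was called at 1 week under 0 of 9 other settings and in 3 of 24 fits with 1 library left out. Those were without TAC replicate 1, sham replicate 3 or sham replicate 4 of that week, at differences above the 1.64 of the full set. The median log2 difference over all circles was 0.06 on average over times.

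Mean sums over circles of fibroblast and cardiomyocyte marker genes also differed between TAC and sham libraries, with ranges that overlapped at some of the times. The 6 circles of fibroblast markers (4 of 18 listed genes) summed to 13.6 to 27.7 normalized reads in TAC and 3.01 to 18.8 in sham libraries at 1 week. At 4 weeks they summed to 17.4 to 21.2 in TAC and 9.16 to 14.8 in sham, and at 8 weeks to 15.4 to 25.1 in TAC and 3.19 to 20.2 in sham. The 11 circles of cardiomyocyte markers (6 of 22 genes) ran the other way. Their sums were 24.3 to 33.8 in TAC and 38.3 to 135 in sham at 1 week, 17.4 to 41.1 in TAC and 39.6 to 125 in sham at 4 weeks, and 44.6 to 51.5 in TAC and 57.7 to 123 in sham at 8 weeks. The part of these shifts in the Creb3l2 values was not tested, and in such bulk libraries fewer cells of a type and less RNA per cell cannot be told apart.

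The sums of the other marker lists overlapped between TAC and sham libraries at each time. Those of the fibroblast list did so at 1 and 8 weeks, and those of the cardiomyocyte list at 4 weeks. The 17 circles of macrophage and other leukocyte markers (6 of 18 genes) summed to 68.3 to 145 in TAC and 74.6 to 167 in sham libraries over all times. The 5 circles of endothelial markers (3 of 12 genes) summed to 8.98 to 18.6 in TAC and 5.02 to 16.8 in sham. The only circle of a mural marker (1 of 8 genes) ranged from 0.973 to 6.76 in TAC and from 0 to 11.0 in sham. Defining markers such as Pdgfra, Tcf21, Col1a1 and Postn of fibroblasts, Myh6 and Tnnt2 of cardiomyocytes and Ptprc of leukocytes had no circle among the 1717. The genes with a circle were Dcn, Fbn1, Svep1 and Nav1 of the fibroblast list and Adgre1, Mrc1, Ikzf1, Fli1, Vav3 and Mertk of the leukocyte list. Pecam1, Flt1 and Tek of the endothelial list and Abcc9 of the mural list also had one. The label of cardiac fibroblasts was therefore checked through few genes. Circles of genes on the cardiomyocyte, endothelial and leukocyte lists were present in every library, but which cells they came from was not tested.

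The differences between times, averaged over TAC and sham, were not used to choose the circles, and limma tested them in the fit over all 1717. Age at collection rises with the time after surgery, so time, age and any batch that runs with them cannot be told apart. No circle of any gene passed at an adjusted p of 0.05 in these comparisons or in the change of the TAC effect over time, which is 0% called in each of the 4. Unadjusted p-values under 0.05 numbered 96 for 4 weeks against 1 week, 122 for 8 weeks against 1 week, and 138 and 148 for the change of the TAC effect by 4 and by 8 weeks. A voom fit called 0 in the first 3 comparisons and 3 in the last, none of them a circle of Creb3l2 or Crebrf.

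For 8 weeks against 1 week, averaged over TAC and sham, both Crebrf circles had intervals above 0 that did not pass after adjustment over all circles. The intervals lean on the spread of circles of similar level. They are narrower than the circles' own residual SDs, 1.14 for exons 3 to 4 and 1.12 for exons 2 to 4, would give. A difference from 0 is therefore not read from them. The log2 difference was 1.15 ± 0.49 (SE, 95% interval 0.18 to 2.12, adjusted p = 0.579) for exons 2 to 4 and 0.86 ± 0.37 (0.14 to 1.58, adjusted p = 0.579) for exons 3 to 4. Without sham replicate 2 of 1 week the value for exons 3 to 4 was 0.37. For Creb3l2 exons 3 to 8 the difference was -0.13 ± 0.44 (-0.98 to 0.73, adjusted p = 0.981) and for exons 5 to 8 -0.08 ± 0.60 (adjusted p = 0.995). At 4 weeks against 1 week the 4 differences ran from -0.52 ± 0.41 for Creb3l2 exons 3 to 8 to 0.58 ± 0.34 for Crebrf exons 3 to 4, with adjusted p-values of 0.855 to 0.979.

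The change of the TAC effect over time is built from the TAC and sham values that the genes were picked on, so it is a description for the 4 circles. For Crebrf exons 3 to 4 the TAC minus sham difference at 8 weeks, less that at 1 week, was -2.08 ± 0.73 (SE) on the log2 scale. That value also hung on the sham libraries of 1 week: it was -1.11 without replicate 2 and -2.84 without replicate 3. It was -0.82 ± 0.87 for Creb3l2 exons 3 to 8, -1.19 ± 1.19 for Creb3l2 exons 5 to 8 and -0.19 ± 0.99 for Crebrf exons 2 to 4. For 4 weeks less 1 week the values were -0.76 ± 0.82 for Creb3l2 exons 3 to 8 and -1.83 ± 1.12 for Creb3l2 exons 5 to 8. They were -1.12 ± 0.69 for Crebrf exons 3 to 4 and 1.67 ± 0.93 for Crebrf exons 2 to 4. The larger TAC to sham ratio of Creb3l2 exons 3 to 8 at 1 week is thus not shown to differ from the ratios at 4 and 8 weeks.

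**Figure D4:**
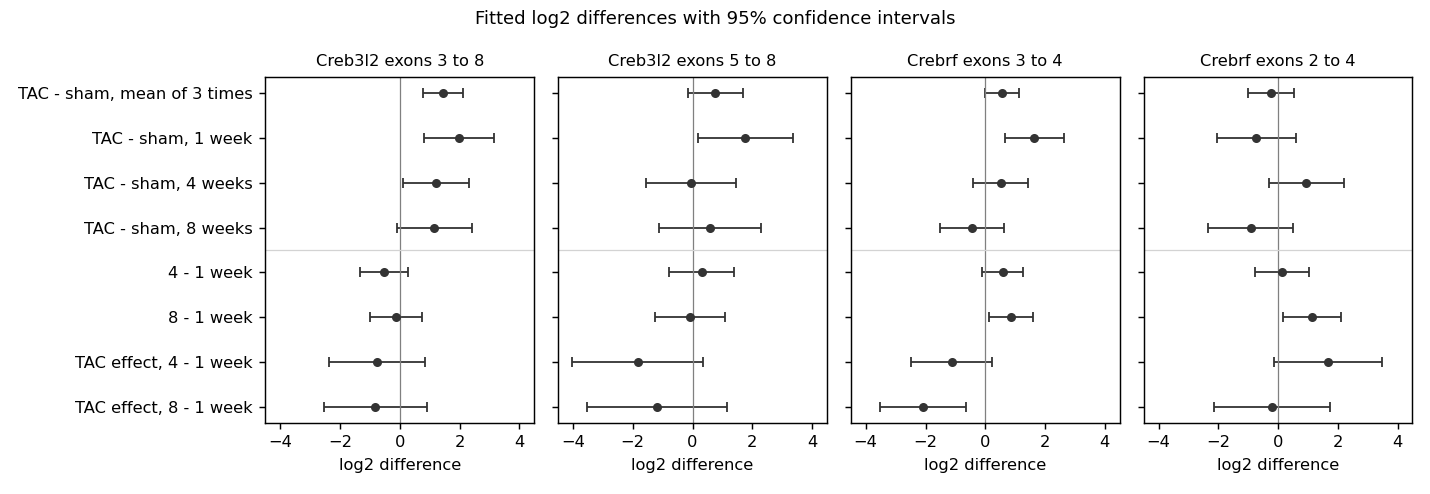
Fitted log2 differences of the 4 circles with 95% confidence intervals, on the log2(normalized reads + 0.5) scale. The upper 4 rows give TAC minus sham, on average and at each time, as a description; the next 2 rows give the tested differences between times, and the lowest 2 rows give changes of the TAC effect, again as a description, such as -2.08 for Crebrf exons 3 to 4 at 8 weeks less 1 week.

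The scarcer circle of each gene took a larger share in Crebrf than in Creb3l2. Of 182 Creb3l2 junction reads, 30 came from exons 5 to 8, which is 16.5% (95% Clopper-Pearson interval 11.4 to 22.7, counting error only). The share was 14.5% in TAC (19 of 131 reads) and 21.6% in sham (11 of 51 reads), and no library held more reads of the smaller circle than of the larger one. Of 373 Crebrf junction reads, 103 came from exons 2 to 4, which is 27.6% (23.1 to 32.5). That share was 24.2% in TAC (47 of 194, 18.4 to 30.9) and 31.3% in sham (56 of 179, 24.6 to 38.6), and the circle of exons 2 to 4 exceeded that of exons 3 to 4 in 1 of 24 libraries. By time the order of TAC and sham turned. The Creb3l2 share at 1 week was 14.3% in TAC (8 of 56 reads) and 9.09% in sham, which is 1 of 11 reads. It was 17.0% in TAC (8 of 47) and 30.4% in sham (7 of 23) at 4 weeks. At 8 weeks it was 10.7% in TAC (3 of 28) and 17.6% in sham (3 of 17). With so few reads, the turn in Creb3l2 is not read as a change. The Crebrf share was 15.0% in TAC and 32.4% in sham at 1 week, 28.6% in TAC and 23.2% in sham at 4 weeks, and 27.9% in TAC and 36.0% in sham at 8 weeks. The intervals of TAC and sham overlapped for both genes, pooled and at each time.

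Replicates of Crebrf exons 3 to 4 were more scattered than those of most circles at its level. Its residual SD was 1.14 on the log2 scale, at the 98.4th percentile of 64 circles of similar mean, whose median was 0.64. Sham at 1 week was its widest group, with an SD of 8.75 normalized reads at a mean of 7.92. The SDs of its other groups ran from 2.89 to 6.64, and the residual SD without sham at 1 week was not computed. For Creb3l2 exons 3 to 8 the SD was 0.93, at the 72.6th percentile of 135 circles, and for Crebrf exons 2 to 4 it was 1.12, at the 72.4th percentile of 163 circles. Creb3l2 exons 5 to 8, with mostly 0 to 3 reads a library, had an SD of 1.00, at the 22.0th percentile of 636 circles.

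With group means removed, the 2 Crebrf circles tended to rank the 24 libraries alike (permutation test of Spearman's rank correlation, 0.584, p = 0.00366, 0.011 after adjustment over 3 relations). The permutation moved values freely over all libraries, although values centred within a group depend on each other. Its p-values here can therefore be too small, and the rank and Pearson correlations were adjusted apart. Pearson's r was 0.356 (p = 0.0879, adjusted p = 0.264, permutation test), and 0.513 without the 2 libraries farthest from the median, sham replicates 2 and 3 of 1 week. The 2 Creb3l2 circles showed no such relation, with r = 0.215 (p = 0.314, adjusted 0.471) and a rank correlation of 0.074 (p = 0.730), and r = -0.15 without the 2 farthest libraries. Between Creb3l2 exons 3 to 8 and Crebrf exons 3 to 4 the r was -0.10 (p = 0.640) and the rank correlation -0.16 (p = 0.463), with 0.0431 for r without the 2 farthest libraries.

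Among 271 circles with a mean of at least 5 reads, those most like Creb3l2 exons 3 to 8 over the 24 libraries came from Tns3, Fndc3b, Ttll3, Kat6b and Svep1. Pearson's r on the log2 scale was 0.594 for exons 14 to 16 of Tns3, which encodes a tensin that links integrins to actin. It was 0.561 for exons 3 to 4 of Fndc3b and 0.557 for exon 11 of Ttll3, a tubulin glycylase. It was 0.490 for exon 2 of Kat6b, a histone acetyltransferase, and 0.479 for exons 2 to 3 of Svep1, a protein of the extracellular matrix. After group means were removed, the values for Tns3, Fndc3b and Ttll3 were 0.523, 0.655 and 0.516, while Kat6b and Svep1 were at 0.168 and 0.0320. With group means kept but without the 2 libraries farthest from the median, r was 0.578 for Tns3, 0.163 for Fndc3b, 0.354 for Ttll3, 0.505 for Kat6b and 0.600 for Svep1. The median r of all candidates was -0.02, and the points share their libraries and depth.

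The circles most like Crebrf exons 3 to 4 came from Nlrp5-ps (exons 2 to 11, r = 0.791), Ttc3 (exons 2 to 11, 0.781), Akap7 (exons 2 to 5, 0.781), Lrch3 (exons 2 to 6, 0.721) and Arhgap12 (exons 2 to 3, 0.718). Nlrp5-ps is a pseudogene, Ttc3 encodes a ubiquitin ligase, and Akap7 an anchor of protein kinase A. With group means removed the values were 0.774, 0.873, 0.757, 0.677 and 0.699 in the same order, so the likeness was also present among libraries of one group. In the sham libraries of 1 week, Ttc3 measured 5.02, 0, 16.5 and 13.4 normalized reads in replicates 1 to 4, and Nlrp5-ps 0, 0, 10.5 and 4.14. Akap7 measured 1.26, 0, 7.51 and 6.20 there, and the abundant Lrch3 15.1, 13.7, 40.6 and 38.3. Replicates 1 and 2, in which Crebrf exons 3 to 4 was low, were the low ones for these 4 circles as well. Without those 2 libraries, and with group means kept, the r values were 0.402 for Nlrp5-ps, 0.570 for Ttc3, 0.459 for Akap7, 0.633 for Lrch3 and 0.534 for Arhgap12.

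The wider pathway was represented by a list of 80 genes of the unfolded protein response, the CREB and CREB3 families and secretion, of which 12 had a circle, 18 circles in all. Besides the Creb3l2 and Crebrf circles there were 14 from 10 genes, and limma called 0 of these in any of the 8 comparisons. In the average over times 10 of the 14 TAC minus sham differences were positive and 4 negative, with a median log2 difference of 0.24, beside 960 positive and 757 negative with a median of 0.06 over all circles. The smallest adjusted p among the 14 was 0.482. At 4 weeks, where the TAC libraries were deeper, 12 of the 14 were positive, beside 969 positive and 748 negative over all circles. The median was 0.54 against 0.12 over all circles, and the part of depth in this was not tested. At 1 week 7 were positive and 7 negative, beside 891 and 826 over all circles. At 8 weeks 9 were positive and 5 negative, beside 883 and 834.

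The 3 most abundant circles of the list were those of Crebrf exons 3 to 4, Creb3l2 exons 3 to 8 and Crebrf exons 2 to 4 themselves. The next was exons 2 to 8 of Creb1, the CREB transcription factor that responds to cyclic AMP, with 2.89 ± 2.07 normalized reads in TAC and 3.24 ± 2.10 in sham (SD, n = 11 and 13). Exons 3 to 4 of Tmbim6, a membrane protein of the endoplasmic reticulum that restrains cell death, measured 3.39 ± 2.12 in TAC and 2.54 ± 1.89 in sham. Exons 4 to 5 of Crebbp, the CREB-binding coactivator, measured 3.03 ± 2.06 in TAC and 2.61 ± 1.72 in sham. These differences were all smaller than the SD of either group. Atf6, whose product is cleaved in the Golgi like CREB3L2, had 1 scarce circle of exons 8 to 9 with 1.12 ± 1.60 in TAC and 0.782 ± 1.10 in sham. Canx, a chaperone of the endoplasmic reticulum, had the largest difference of the 14 in the average over times, 0.96 ± 0.47 (SE) on the log2 scale, at 1.51 ± 1.19 in TAC and 0.756 ± 1.15 in sham (SD).

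Circular RNAs are often searched for matches to microRNA seeds, the bases 2 to 8 that pair with a target. Of 14 microRNAs studied in the heart, 3 had a match to the complement of their seed in these circles, read through the junction. The mature sequences from RefSeq, with the seed in capitals, are given with the matched stretch of the circle, where capitals mark the match.
miR-21a-5p: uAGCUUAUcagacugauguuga
Creb3l2, end of exon 5 and start of exon 6: acagctccacATAAGCTgcagggatcg
miR-24-3p: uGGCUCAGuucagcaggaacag
Crebrf, exon 4: ccggcccttgCTGAGCCaggtccacat
miR-199a-5p: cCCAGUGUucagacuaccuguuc
Crebrf, exon 4: taaaactccaACACTGGcccagctcaa
The miR-21a-5p match lies in both Creb3l2 circles and spans the splice of exons 5 and 6, with 2 bases in exon 5 and 5 in exon 6, so that it exists in spliced RNA, linear or circular, and not in the genome's own order. Of circles of similar length, 2.21% of 317 for exons 3 to 8 and 3.38% of 503 for exons 5 to 8 held this match. The miR-24-3p match (chromosome 17, 26742663 to 26742669) and the miR-199a-5p match (26742318 to 26742324) lie in coding bases of exon 4 and in both Crebrf circles. They were more common among circles of similar length, at 12.1% and 16.5% of 91 for exons 3 to 4, and 19.3% and 24.6% of 57 for exons 2 to 4. For the microRNAs without a match in Creb3l2 exons 3 to 8, 1.89% (miR-26a-5p) to 16.4% (miR-214-3p) of the 317 circles held one. For those without a match in Crebrf exons 3 to 4 it was 3.30% (miR-26a-5p) to 22.0% (miR-214-3p) of the 91. With 14 microRNAs searched, matches to a few are therefore not read as unusual, and their number per circle was not tested. A match of letters is a description of the sequence and not a measured binding site, and microRNA levels were not analysed here.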

How the data were processed

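Per the labels' protocols, total RNA of isolated cardiac fibroblasts was depleted of ribosomal RNA and sequenced. FastQC, Trimmomatic, STAR and build mm10 are named in the submitters' processing notes, without versions; how the caller was set and the values scaled is not stated there. The authors' deposited values are a normalized signal: reads across each back-splice junction divided by a factor per library, plus 0.01. That offset was removed, after which 100% of the values were whole reads within 0.001 of a read. Junctions were matched to exons of the mouse GENCODE release M21, and 1666 of 1717 matched a gene at both ends, 36 at 1 end and 15 at none.

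The main test was limma 3.58.1 (R 4.3.3) with an intensity trend on log2(normalized reads + 0.5), over 24 libraries in 6 groups, adjusted by Benjamini-Hochberg over all 1717 circles in each of 8 comparisons. Requiring 2 or more reads in 3 or more libraries removed none. A count test had been planned but was not run, since the values as deposited are normalized, and only voom used the recovered reads. The members, lists and tests were chosen with earlier results of these data known. The circles named are those of Creb3l2 and Crebrf, list members that passed or were among the 3 most abundant of the list, and the 5 circles most correlated with each member of mean 5 reads or more. Atf6, Canx and the next abundant Creb1, Tmbim6 and Crebbp were named after their values were seen. Alternatives were other pseudocounts, a stricter filter, another scaling, voom, a replicate block, only the libraries of the times compared, and each library left out. Whether each library is its own animal is not said in the labels, and the p-values then reflect only how these libraries vary, possibly for technical reasons. All 37 pairs of replicates differed beyond counting noise (largest chi-square p 0.00107). Simulated data of the averaged comparison (1712 circles tested) had changes only in circles with a mean of at least 3 normalized reads, and the same dispersion for every circle. There the fit recovered 45% of 2-fold and 94% of 4-fold changes, with 9 false calls in the same run. Recovery was not measured for scarcer circles, such as Creb3l2 exons 5 to 8, and the median circle had a mean of 1.80.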

Additional observations from a re-analysis of the deposited data

Results flagged for a closer look

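Creb3l2 exons 5 to 8 measured 1.50 normalized reads in sham replicate 3 of 1 week and 0 in the other 3 sham libraries of that week. That library stood apart from its group by 1 read. Among the 20 groups of 4 or 5 libraries checked this way the nominal rate of flags is 1 in 20. That rate is for continuous values and does not hold here, since a group with reads in only 1 library is always flagged. Crebrf exons 3 to 4 differed in direction between times: its TAC mean minus sham mean was 3.22 normalized reads at 4 weeks, with all 4 TAC libraries above the sham mean, and -4.08 at 8 weeks, with all 3 TAC libraries below it. The difference between these 2 times was not tested.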

How the results depend on the processing

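Creb3l2 exons 3 to 8 kept its sign in the averaged TAC against sham comparison in every fit, at 1.24 to 1.57 with 1 library left out and at 1.29 to 1.70 under the other settings. Directions that turned belonged to values near 0 and not called: with a pseudocount of 0.1, Creb3l2 exons 5 to 8 at 8 weeks against 1 week gave 0.10 and the change of the TAC effect by 8 weeks of Crebrf exons 2 to 4 gave 0.27. With 1 library left out these ran from -0.31 to 0.17 and from -0.88 to 0.27. Likewise Creb3l2 exons 3 to 8 at 8 weeks against 1 week ran from -0.29 to 0.054, and Crebrf exons 2 to 4 at 4 weeks against 1 week from -0.20 to 0.43. Counts over all circles moved more. The averaged comparison called 11, but 5 with a pseudocount of 0.1, 20 with voom and 4 (without TAC replicate 1 of 8 weeks) to 17 (without sham replicate 1 of 1 week) with 1 library left out. At 1 week the count was 25, but 14 with voom, 1 with the libraries of that week alone and 6 to 32 with 1 left out. At 4 weeks it was 2, but 0 and 6 with pseudocounts of 0.1 and 1, 6 with trimmed-mean scaling, 7 with voom, 15 with the libraries of that time alone and 0 to 7 with 1 left out. At 8 weeks against 1 week it was 0, but 1 with a mean of at least 5 reads and 0 to 2 with 1 left out. The change of the TAC effect gave 0 to 1 by 4 weeks with 1 left out, and by 8 weeks 2 with a pseudocount of 1, 3 with voom and 0 to 8 with 1 left out. The cause of these moves was not tested.

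With the replicate block, 4 circles were called at 4 weeks and 1 for the change of the TAC effect by 4 weeks, and Crebrf exons 2 to 4 at 4 weeks against 1 week gave -0.014. The numbers were not taken as pairs, since TAC and sham libraries with the same title number correlated at -0.0765 to 0.135, and those with the same number in the table's columns at -0.0397 to 0.135. The planned edgeR fit was not run, since the values as deposited are normalized. Whole reads were recovered from them and used for voom, so a count fit on those reads was possible but was not made. With a mean of 1.23 normalized reads, Creb3l2 exons 5 to 8 is at the limit of what this depth resolves.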
